A study of Homo sapiens with 183 samples.

Results

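The genes described here are 31 genes of cholesterol and fatty acid synthesis, chosen by name, with 29 of them among the 19875 gene names of the expression tables. NSDHL and EBP, a pair of late cholesterol enzymes, were not analysed here. The members fall into 7 enzymes of the mevalonate arm, 11 of the squalene and sterol arm, 4 regulators and transport proteins and 9 genes of fatty acid synthesis and lipid handling. The unit throughout is TPM, a transcript abundance scaled to transcript length and to the library total, and every difference is a difference of log2(TPM + 1), treated minus control. Each count of members was repeated after the libraries were rescaled by the median of ratios over the tested genes (called rescaling here), and the result is given where the split of all genes between higher and lower moved with it. Counts with 1 library left out come without the share of all genes in that fit. They show only how far a count rests on single libraries. Members with values printed for every library were mostly picked by a rule that asks for no overlap with controls. Lack of overlap in them therefore adds no support.

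Cells build cholesterol from acetyl-CoA through mevalonate, squalene and lanosterol, and build fatty acids from the same acetyl-CoA through malonyl-CoA. Both routes are controlled by the sterol regulatory element binding proteins, encoded by SREBF1 and SREBF2, which sit in the endoplasmic reticulum and are released to the nucleus when membrane sterol is low. INSIG1 retains them there and is itself one of their targets, while STARD4 carries cholesterol between membranes. SREBF2 is known mainly for the cholesterol genes and SREBF1 for the fatty acid genes, of which FASN makes palmitate and SCD places the first double bond in it. Pancreatic ductal adenocarcinoma cells are known for active lipid synthesis.

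Polyadenylated RNA was measured in 183 libraries of human cancer cell lines. In 5 pancreatic cancer lines that express Cas9 (BxPC-3, CFPAC-1, T3M-4, AsPC-1 and SUIT-2) a guide RNA against KLF5, RUVBL1, RUVBL2, CHD4, SERPINB5, CDK1 or Rpa3, or against the neutral locus Rosa (sgRosa), had been delivered 5 days before RNA was taken. KLF5 is a zinc finger transcription factor of epithelial cells, RUVBL1 and RUVBL2 are the paired AAA+ ATPases of several chromatin and assembly complexes, CHD4 is a nucleosome remodeller, and CDK1 and RPA3 serve mitosis and DNA replication in every dividing cell. In the other experiments the RUVBL1/2 ATPase inhibitor CB-6644 or its solvent DMSO was given for 24 hours, to parental T84 (colorectal), A375 (melanoma), H1048 (small cell lung, tuft-like) and RH30 (rhabdomyosarcoma) cells and to AsPC-1 and T3M-4 cells that carried a lentiviral vector with no insert (Lv-Empty), RUVBL1_A62T or RUVBL2_dF109, the last 2 being variants that resist the inhibitor. AsPC-1 knockouts came as experiments 1, 2 and 3 and as a separate sgCHD4 experiment, T3M-4 and BxPC-3 knockouts as experiments 1 and 2, by the first number in the library names, and each group was set only against sgRosa or DMSO of its own line and experiment. The knockout cells were pools, not clones, and the methods describe 2 guides for the main targets that the labels do not tell apart. The figure legends call libraries of several knockout experiments biological replicates or independent samples, and for the other groups nothing states that replicates came from separate cultures, so that their p-values measure a spread that may be technical.

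Between 11292 and 14024 genes reached 1 TPM in a library. The RUVBL1 transcript was at 30.8 to 33.6 TPM in sgRUVBL1 against 94.7 to 100.8 in sgRosa (AsPC-1 experiment 2), and each RUVBL1 or RUVBL2 knockout was below its controls. The KLF5 transcript of sgKLF5 libraries was below every control in CFPAC-1 alone and reached or passed the control range elsewhere (AsPC-1 experiment 3, 140.4 to 193 against 148 to 163 TPM), and CHD4 of sgCHD4 libraries did so too (61.7 to 97.5 against 65.1 to 69.1). A cut gene can lose its protein and keep its transcript, so these values check neither label. In CFPAC-1 the libraries labelled sgRpa3 held CDK1 at 80.96 to 91.9 TPM, below the 206 to 236 of sgRosa, while the libraries labelled sgCDK1 held 194 to 207, so directions drawn from either label in CFPAC-1 rest on a doubtful label. Among the CFPAC-1 sgRosa libraries replicate 2 held SERPINB5 at 59.8 TPM against 169 to 193 in the others. The basal marker KRT5 marked BxPC-3 and T3M-4 (2993 and 642 TPM on average in controls) and was near 0 in AsPC-1 (0.325). SOX10 in A375 (235), POU2F3 in H1048 (476) and MYOD1 in RH30 (736) matched those lines' labels. The other markers looked at, those of T84 among them, are not given here.

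Promoter sequence is shown for 5 members, the 4 with the largest falls after KLF5 knockout in BxPC-3 experiment 2 and SREBF2, the member whose window holds the classical sterol element. Each is the 250 bases before the first listed transcription start, 5′ to 3′ on the gene's strand, from RefSeq (GRCh38.p14), in lower case. Capitals mark the sterol regulatory element TCACNCCAC, the palindromic element ATCACGTGA, the CCAAT box and the CACCC box, each on either strand. On the other strand the CCAAT box reads ATTGG. The CACCC box there reads GGGTG. SREBP binds the first pair of motifs, NF-Y binds CCAAT, and Krüppel-like factors bind CACCC and the GC box GGGCGG, which is not capitalised.
SCD (chr10:100346983-100347232, plus strand): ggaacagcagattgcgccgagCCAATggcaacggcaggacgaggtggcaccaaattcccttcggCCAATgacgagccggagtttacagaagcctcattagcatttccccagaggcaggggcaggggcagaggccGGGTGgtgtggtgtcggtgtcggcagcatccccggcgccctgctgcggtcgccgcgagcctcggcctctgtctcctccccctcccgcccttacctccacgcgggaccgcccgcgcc
SREBF1 (chr17:17836987-17837236, minus strand): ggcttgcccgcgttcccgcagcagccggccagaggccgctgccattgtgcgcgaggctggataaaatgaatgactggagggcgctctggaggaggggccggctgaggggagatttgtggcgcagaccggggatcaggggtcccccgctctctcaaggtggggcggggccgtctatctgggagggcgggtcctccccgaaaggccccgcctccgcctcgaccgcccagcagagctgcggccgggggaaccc
ACSS2 (chr20:34874739-34874988, plus strand): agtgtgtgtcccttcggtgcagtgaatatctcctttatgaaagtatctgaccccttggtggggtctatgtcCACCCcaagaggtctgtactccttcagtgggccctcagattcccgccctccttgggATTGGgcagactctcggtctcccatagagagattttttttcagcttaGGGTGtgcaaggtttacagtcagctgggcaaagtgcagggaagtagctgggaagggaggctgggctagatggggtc
INSIG1 (chr7:155297628-155297877, plus strand): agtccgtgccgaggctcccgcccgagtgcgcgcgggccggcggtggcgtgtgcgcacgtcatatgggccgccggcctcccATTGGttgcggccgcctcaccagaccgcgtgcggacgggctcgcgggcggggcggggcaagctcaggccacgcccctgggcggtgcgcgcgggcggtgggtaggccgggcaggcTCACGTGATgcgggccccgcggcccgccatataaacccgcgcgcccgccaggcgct
SREBF2 (chr22:41832855-41833104, plus strand): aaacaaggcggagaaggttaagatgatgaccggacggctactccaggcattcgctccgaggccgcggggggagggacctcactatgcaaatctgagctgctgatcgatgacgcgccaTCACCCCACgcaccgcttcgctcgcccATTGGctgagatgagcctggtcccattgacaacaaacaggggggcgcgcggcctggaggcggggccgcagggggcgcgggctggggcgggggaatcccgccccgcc

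Of the 31 members, 27 had at least 1 promoter window (250 bases before to 50 after a start, 39 windows in all), and ACAT2, FDFT1, SQLE and FASN had none in the table. CACCC stood in 76.9% of member windows against 59.9% of the 35116 windows of all genes, GGGCGG in 87.2% against 45%, and CCAAT in 64.1% against 34.6%. TCACNCCAC was found in 1 member, SREBF2, and ATCACGTGA in 1, INSIG1. Each is 1 of 39 member windows (2.56%), against 1.13% and 0.268% of all windows. The bases CACCC overlap TCACNCCAC in SREBF2, and a match is a description of letters, not of binding. SREBF1 shows no capitals in its 250 bases, which says only that these letters are not there.

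In control libraries the members spanned a wide range of levels. SCD was the most abundant fatty acid gene in 5 of 9 lines, with a mean of 419 TPM in BxPC-3, 342 in CFPAC-1 and 331 in RH30, down to 109 in T3M-4. FDPS, which makes farnesyl diphosphate, was the most even, at 183 TPM in SUIT-2 to 402 in CFPAC-1. Among members above 1 TPM in every line the desaturase gene FADS2 was the least even, with 1.13 TPM in T84, 4.70 in BxPC-3, 184 in CFPAC-1 and 279.9 in H1048. INSIG1 was at 0.0530 TPM in RH30, under the 1 TPM needed for a test, and at 92.4 in BxPC-3. Levels also moved between experiments of a line, and SCD of AsPC-1 sgRosa cells was 58.7 to 68.9 TPM in experiment 2 and 238 to 369 in experiment 3.

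**Figure D1:**
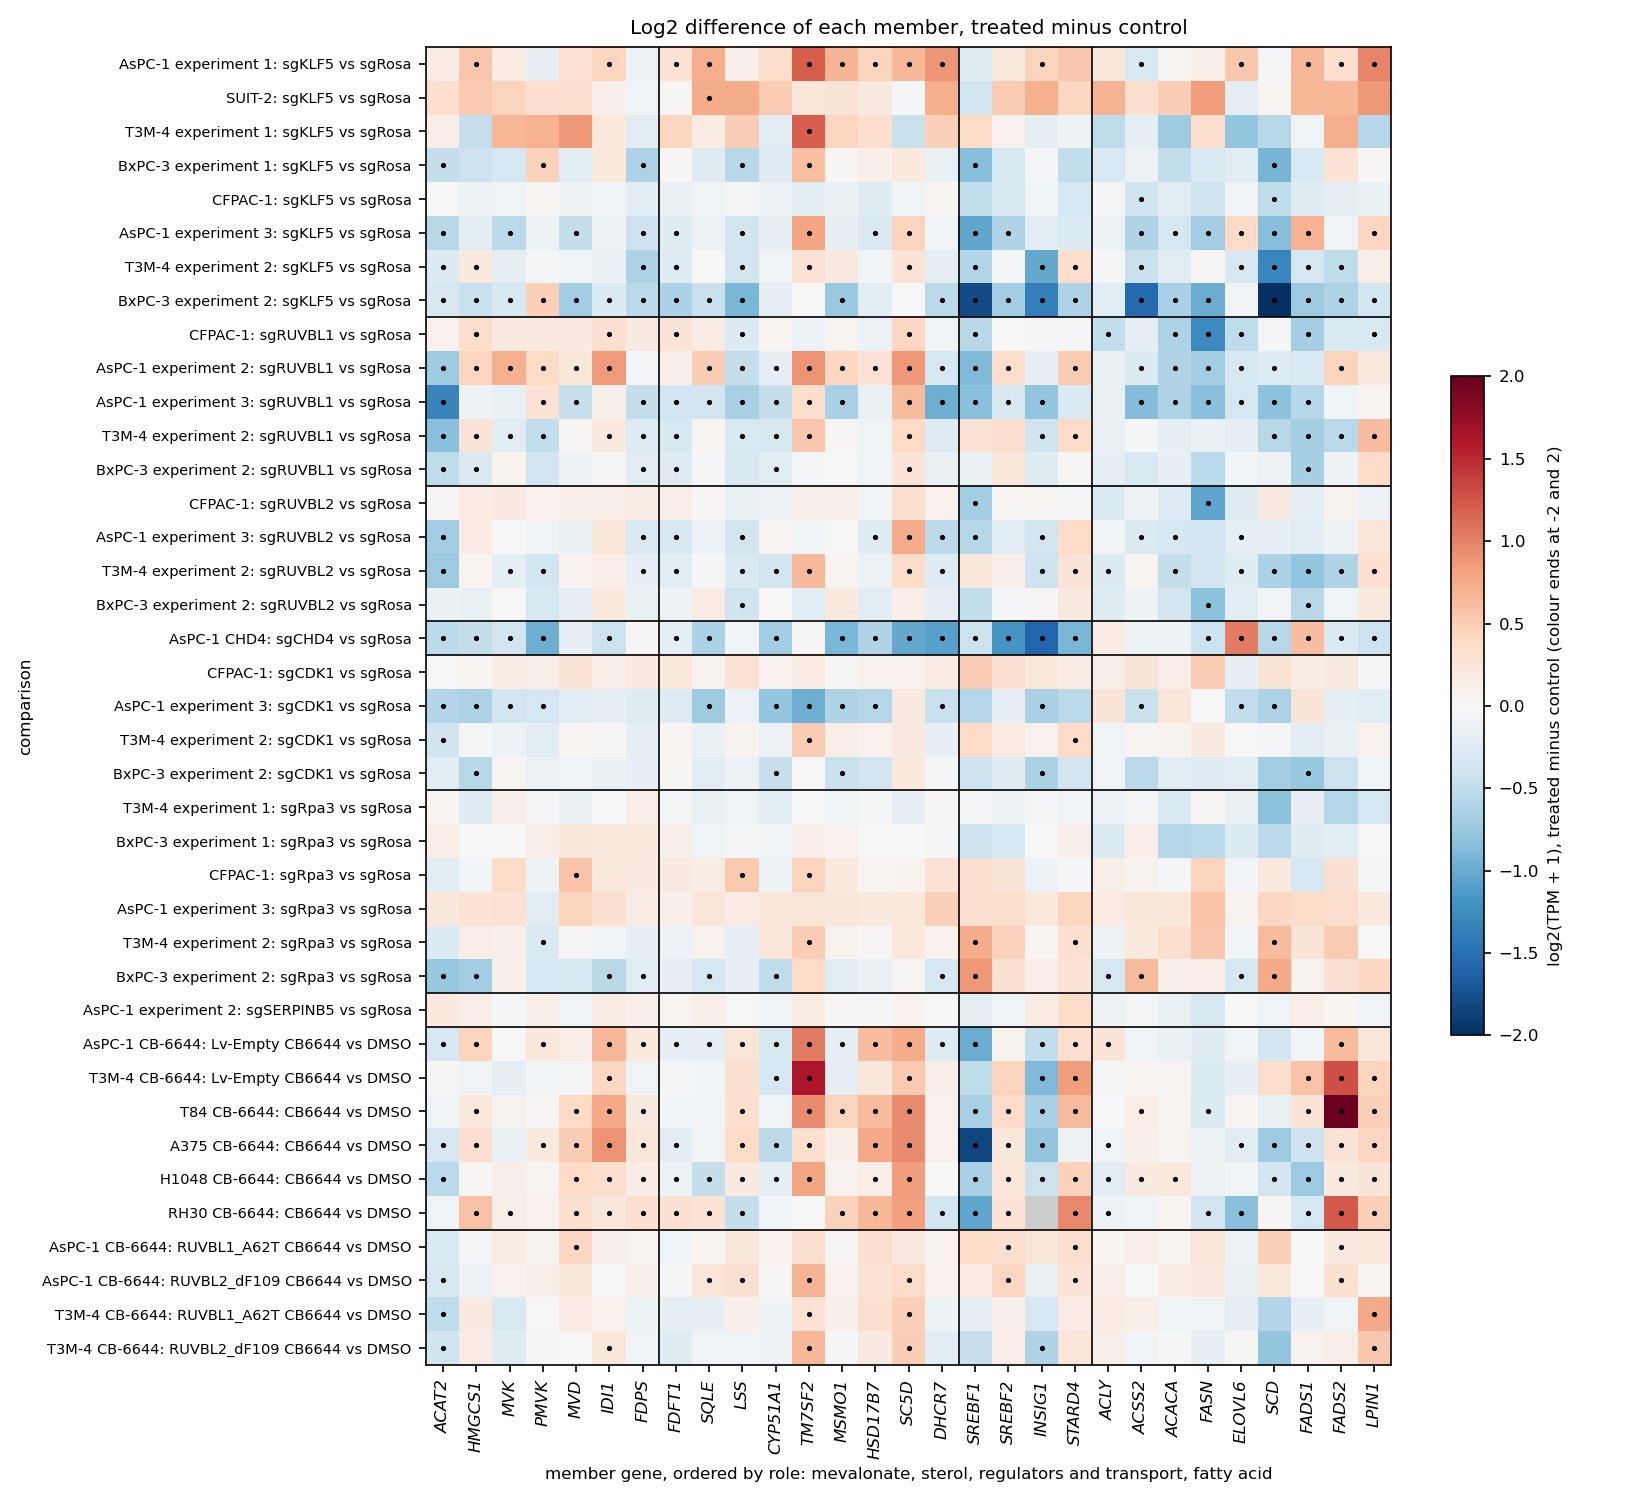
Log2 difference of every member (columns, ordered by role) in each of the 39 comparisons against sgRosa or DMSO (rows), blue for lower and red for higher, with a dot where the limma test passed at an adjusted p of 0.05. Grey marks INSIG1 in RH30, which was not tested. The row of sgKLF5 in BxPC-3 experiment 2 is the bluest of the sgKLF5 rows, with 22 members lower, and the inhibitor rows hold rises of SC5D, IDI1 and FADS2 beside falls of SREBF1 and INSIG1.

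The first question was what loss of KLF5 does to these genes, and 8 comparisons without shared controls bear on it. SCD, which desaturates stearate, fell in 5 of them, ACSS2, which makes acetyl-CoA from acetate, in 5, and SREBF1 in 4. FDPS, LSS (which folds squalene epoxide into lanosterol) and ACAT2 (which joins acetyl-CoA units at the head of the mevalonate arm) fell in 4 each. None of these 6 rose in any of the 8, and after rescaling SCD and ACSS2 fell in 4 each, SREBF1 in 5, and LSS rose in 1. TM7SF2, a sterol reductase of the late pathway, rose in 5 and SC5D, the sterol desaturase, in 3, and neither fell. After rescaling they rose in 4 and 2, and again neither fell. Most other members moved differently from experiment to experiment. In single comparisons 1% to 13.6% of all genes fell and 2.94% to 23.4% rose. How many genes were called as often as the members named here was not counted.

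BxPC-3 in experiment 2 showed the most falls. SCD was at 442, 429, 618 and 648 TPM in the 4 sgRosa libraries and at 89.4, 106, 149 and 126 in the 4 sgKLF5 libraries (log2 difference -2.17, SE 0.17, adjusted p = 3.61e-08, limma). The highest knockout library lay far below the lowest control, and the controls themselves split into a lower pair, replicates 1 and 2, and a higher pair. SREBF1 was at 155, 169.9, 219 and 233 TPM against 47.8, 49.9, 60.7 and 62.2 (log2 difference -1.79, SE 0.21, adjusted p = 5.01e-06). ACSS2 was at 66.1, 66.4, 94.9 and 90.9 TPM against 20.3, 24.00, 30.8 and 30.1 (log2 difference -1.56, SE 0.15, adjusted p = 2.78e-07). Both repeated the pattern of SCD, with the lack of overlap that the rule asks for. INSIG1 was at 115, 101.4, 127 and 138 TPM against 34.9, 42.2, 59.6 and 50.02 (log2 difference -1.36, SE 0.14, adjusted p = 6.05e-07), and FASN at 123, 136, 156 and 155 against 64.2, 69.9, 77.99 and 72.8 (log2 difference -0.99, SE 0.23, adjusted p = 0.00314).

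In that comparison 22 of 29 members fell and 1 rose, where 13.6% of all genes tested fell and 21% rose. The member median was -0.54 and that of all genes 0.05. After rescaling 25 fell and 1 rose, against 18.3% and 18.5%. By role, 6 of 7 mevalonate genes fell, among them MVD (-0.70), FDPS (-0.54) and HMGCS1 (-0.45). In the sterol arm 5 of 9 measured genes fell, led by LSS (-0.92), MSMO1 (-0.74) and FDFT1 (-0.63), with SQLE, the squalene epoxidase, at -0.44 (adjusted p = 2.92e-04). All 4 regulators fell, SREBF2 by 0.69 and STARD4 by 0.61 on the log2 scale, and so did 7 of 9 fatty acid genes. PMVK, phosphomevalonate kinase, was the single member that rose, with 11.2, 13.5, 12.7 and 9.37 TPM in sgRosa and 18.5, 16.6, 14.1 and 16.7 in sgKLF5 (log2 difference 0.47, SE 0.15, adjusted p = 0.0178). With 1 library left out the number that rose was 0 without sgKLF5 replicate 1 or sgRosa replicate 4.

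**Figure D2:**
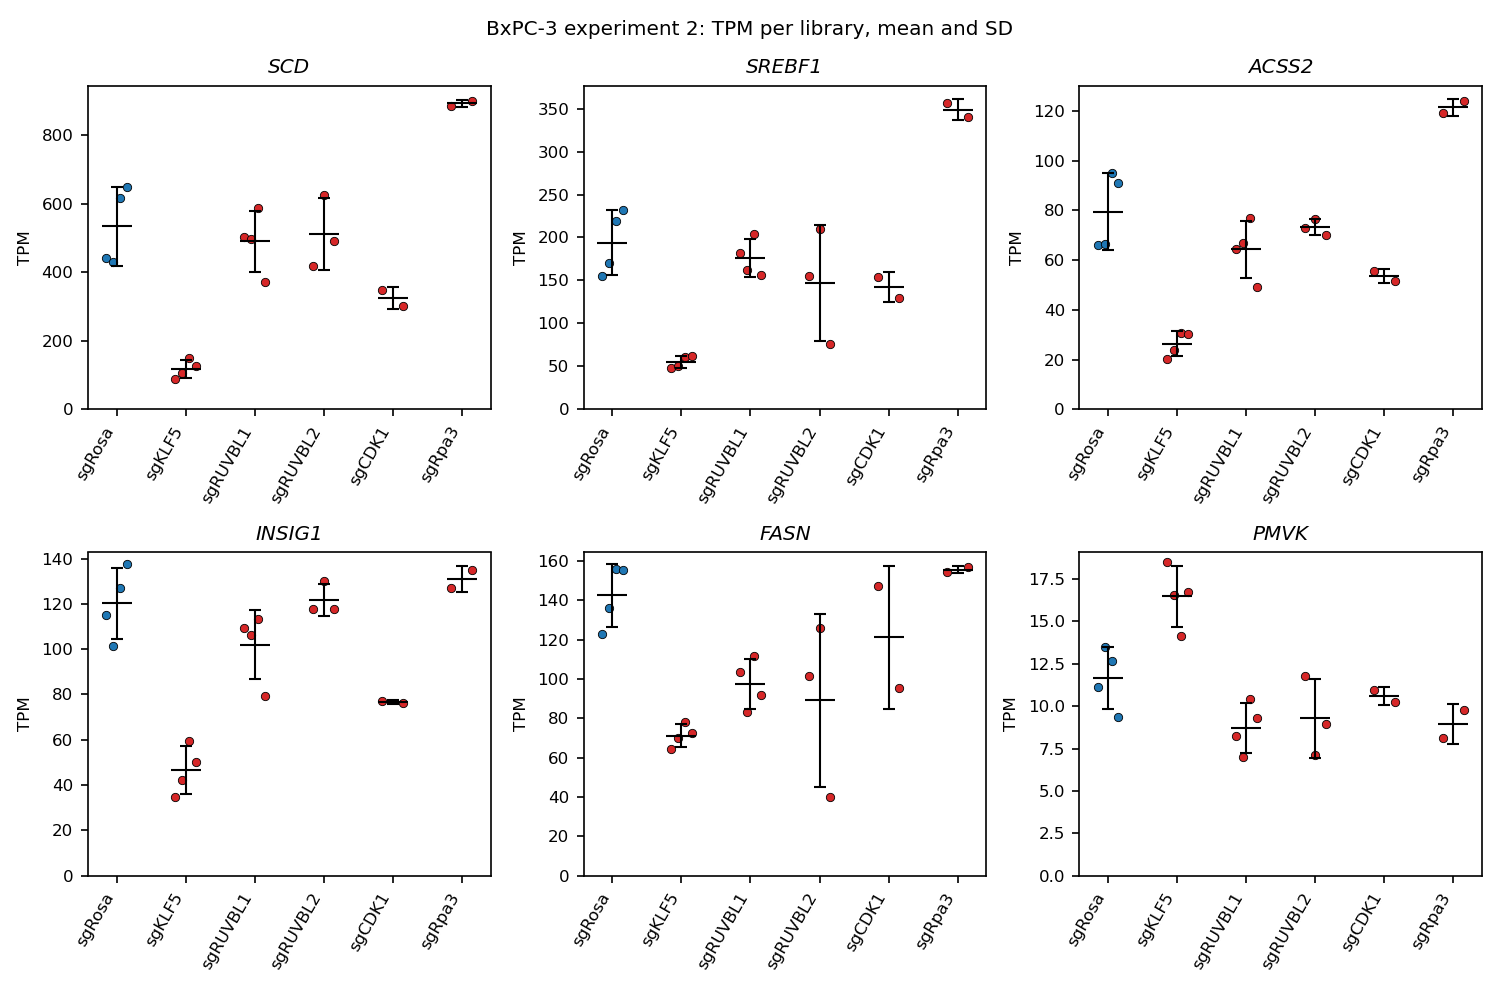
TPM of 6 members in each library of BxPC-3 experiment 2 (y axis from 0), by knockout (x axis). Points are libraries, blue for sgRosa, with the group mean and SD. For SCD, SREBF1, ACSS2 and INSIG1 the 4 sgKLF5 points lie below every other library of the experiment, while those of PMVK lie above every other library.

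BxPC-3 in experiment 1 moved SCD and SREBF1 by less. SCD was at 192 and 185 TPM in 2 sgRosa libraries and at 118, 97.4, 87.97 and 90.96 in 4 sgKLF5 libraries (log2 difference -0.93, SE 0.13, adjusted p = 7.92e-04). SREBF1 was at 72.2 and 68.8 TPM against 39.6, 36.7, 36.8 and 40.7 (log2 difference -0.86, SE 0.11, adjusted p = 4.81e-04). Neither overlapped its controls, as the rule asks. 5 members fell and 2 rose, against 8.1% and 8.09% of all genes, with FDPS (-0.62), LSS (-0.55) and ACAT2 (-0.48) also lower and TM7SF2 (0.60) and PMVK (0.46) higher. INSIG1 (-0.04, adjusted p = 0.907), SREBF2 (-0.32, 0.0858), FASN (-0.30, 0.283), HMGCS1 (-0.41, 0.200) and SQLE (-0.24, 0.306) did not pass. Leaving out 1 library, the number that fell was 3 without sgRosa replicate 1 or 2, and the number that rose was 0 without sgRosa replicate 1 or 2 and 1 without sgKLF5 replicate 2 or 4. The KLF5 effect differed between the experiments for 12 of 29 members, all lower in experiment 2, where 19.8% of all genes differed. For SCD the difference of effects was -1.24 (adjusted p = 0.00237) and for INSIG1 -1.33 (adjusted p = 8.18e-04). The PMVK call was also lost after rescaling.

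In AsPC-1 experiments 1 and 3 differed. Experiment 1 held 2 sgRosa and 6 sgKLF5 libraries, and 14 of 29 members rose and 1, ACSS2, fell, where 17.1% and 8.81% of all genes did. After rescaling 11 rose and 2 fell, against 15.2% and 13.7%. In a fit with 1 library fewer the number that fell was 0 without sgRosa replicate 1 or 2, and the number that rose was 5 without sgRosa replicate 2. The sterol arm held 7 of the rises among its 9 genes. TM7SF2 was at 9.60 and 9.11 TPM in sgRosa and in sgKLF5 at 19.97 at the lowest, 21.9 at the median and 28.3 at the highest (log2 difference 1.21, SE 0.14, adjusted p = 1.39e-04). LPIN1, a phosphatidate phosphatase, was at 5.55 and 4.93 TPM and in sgKLF5 at 9.71 at the lowest, 11.6 at the median and 12.6 at the highest (log2 difference 0.98, SE 0.13, adjusted p = 3.33e-04). Both knockout groups stood wholly above the controls, as the rule asks. DHCR7, the last reductase of the pathway (0.88), SQLE (0.72), HMGCS1, which makes HMG-CoA (0.55), and INSIG1 (0.45) also rose. SCD was -0.03 (adjusted p = 0.854), SREBF1 -0.24 (0.0822), SREBF2 0.19 (0.171) and FASN 0.12 (0.583).

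In experiment 3, with 4 libraries a group, 13 members fell and 5 rose, against 12.3% and 15.4% of all genes. SREBF1 was at 57.4, 60.8, 60.4 and 65.6 TPM in sgRosa and at 19.1, 39.7, 42.01 and 22.3 in sgKLF5 (log2 difference -1.04, SE 0.22, adjusted p = 0.00150). SCD was at 238, 252, 339 and 369 TPM against 129, 167, 191 and 173 (log2 difference -0.85, SE 0.14, adjusted p = 1.62e-04). The groups did not overlap, although the sgKLF5 libraries split into a pair near 20 and a pair near 40 TPM of SREBF1. FASN split with them, at 17.8, 33.9, 38.2 and 18.2 TPM against 37.3, 41.6, 44.5 and 44.4 in sgRosa, and overlapped its controls (log2 difference -0.69, SE 0.22, adjusted p = 0.0233). SREBF2 (-0.60) fell, TM7SF2 (0.79), FADS1 (0.70), the other desaturase of long fatty acids, and SC5D (0.45) rose, and HMGCS1 (-0.23, adjusted p = 0.0766), SQLE (-0.12, 0.506) and INSIG1 (-0.23, 0.263) did not pass. The effect differed between experiments for 12 of 29 members, all lower in experiment 3, where 4.6% of all genes differed. The number of members that differed was 4 when sgRosa replicate 2 of experiment 1 was left out. Signs were opposite for 19 members, effects near 0 included. They were for 16 with sgKLF5 in T3M-4, 8 in BxPC-3 and 10 with sgRUVBL1 in AsPC-1. Opposite signs were not counted over all genes. The SC5D call was lost without sgRosa replicate 1 or 2.

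T3M-4 gave 1 member higher in experiment 1, TM7SF2, and none lower by limma, where 3.26% and 2.46% of all genes passed. At an unadjusted limma p under 0.05, 5 members were higher and 0 lower, against 1498 and 1708 of 12636 genes. TM7SF2 was at 22.3 and 19.8 TPM in 2 sgRosa libraries and at 47.9, 53.5, 47.6 and 48.1 in 4 sgKLF5 libraries (log2 difference 1.19, SE 0.18, adjusted p = 0.00983). Replicate 2 of sgKLF5 stood apart: its member median was -0.76 against the control mean, the other 3 being at 0.29 to 0.47, and its SCD was 12.02 TPM against 31.4 to 42.3 in them. Without that library 14 members rose and 1 fell, and without sgKLF5 replicate 1 or either sgRosa library none passed. Over all genes, too, replicate 2 lay apart, at a median absolute log2 difference of 0.71 to 0.92 from the other sgKLF5 libraries. Those lay 0.08 to 0.23 from each other. The share of all genes in the fit without replicate 2 is not given here, so the 14 is no result about the members. In experiment 2 11 members fell and 4 rose, against 11.2% and 23.4% of all genes, and after rescaling 16 fell and 1 rose, against 19.9% and 17.6%. When 1 library was dropped the number that rose was 2 without sgKLF5 replicate 3 or 4 or sgRosa replicate 1 or 2.

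In T3M-4 experiment 2 SCD was at 133, 129.8, 227 and 163 TPM in sgRosa and at 56.6, 63.5, 68.9 and 66.2 in sgKLF5 (log2 difference -1.31, SE 0.14, adjusted p = 1.43e-06). INSIG1 was at 44.8, 39.3, 48.01 and 47.7 TPM against 19.1, 21.8, 22.3 and 22.8 (log2 difference -1.03, SE 0.09, adjusted p = 4.14e-08). The knockout libraries lay together, below every control, whereas 1 SCD control reached 227. FDPS fell (-0.61), SREBF1 fell (-0.59, adjusted p = 0.0210) with overlapping groups, its sgRosa libraries running from 92.96 to 248.7 TPM, and HMGCS1 rose by 0.19 (adjusted p = 0.0441). SQLE (0.01, 0.938), SREBF2 (-0.04, 0.842) and FASN (0.03, 0.951) did not pass. Between the experiments 2 members differed, MVK and TM7SF2, against 1.67% of all genes, and 19 did without replicate 2 of sgKLF5 in experiment 1. The share of all genes that differed without that library is not given here. The HMGCS1 call was lost after rescaling.

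SUIT-2 and CFPAC-1 moved few members. In SUIT-2 1 member rose, SQLE, and none fell by limma, where 2.94% and 1% of all genes passed. At an unadjusted limma p under 0.05, 11 members were higher and 0 lower, against 1721 and 344 of 12585 genes. SQLE was at 14.6, 21.1, 17.8 and 17.99 TPM in sgRosa against 34.8, 28.6, 30.4 and 28.5 in sgKLF5 (log2 difference 0.75, SE 0.17, adjusted p = 0.0395). Its sgRosa replicate 1 stood apart, with SCD at 100.5 TPM against 216 to 256, and SREBF1 at 23.8 against 96.96 to 113. Without it 6 members rose and none fell, and the member median went from 0.43 to 0.23, while without any other single library of the comparison none rose. Over all genes replicate 1 also lay apart, at a median absolute log2 difference of 0.62 to 0.74 from the other sgRosa libraries. Those lay 0.10 to 0.19 from each other. The share of all genes in the fit without replicate 1 is not given here. After rescaling 1 rose and 0 fell, against 3.93% and 2.73% of all genes, the riser being DHCR7 and no longer SQLE. In CFPAC-1 SCD was at 295, 309.9, 327 and 436 TPM in sgRosa and 233, 216 and 269 in 3 sgKLF5 libraries (log2 difference -0.50, SE 0.17, adjusted p = 0.0481). ACSS2 was the other member that fell (-0.40, adjusted p = 0.0327), none rose, and 13% and 3.26% of all genes fell and rose. Members at an unadjusted limma p under 0.05 were 0 higher and 8 lower, against 921 and 3226 of 12748 genes. The SCD and ACSS2 calls were lost after rescaling, when 0 fell and 0 rose, against 7.09% and 8.08%. With 1 library left out the number that fell was 0 without sgKLF5 replicate 1, 2 or 3 or sgRosa replicate 1 or 3. Both calls were lost with no filter on low values too.

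**Figure D3:**
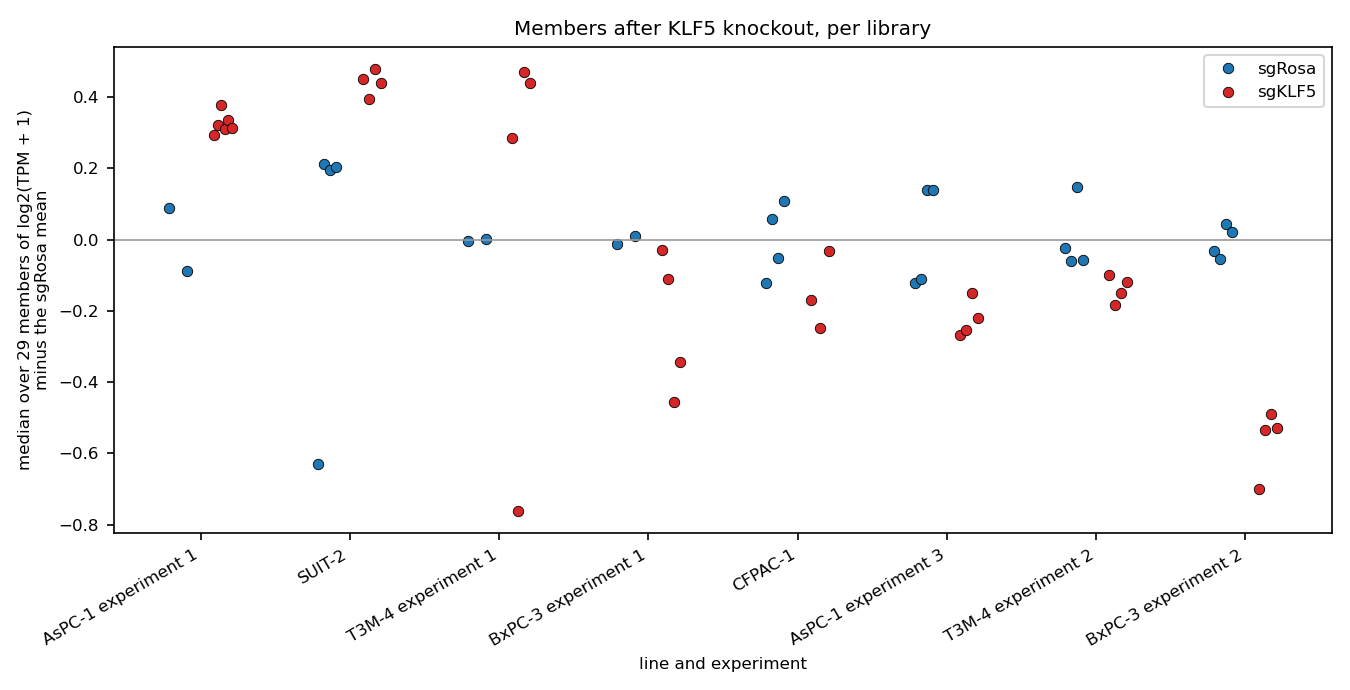
Median over 29 members of log2(TPM + 1) minus the sgRosa mean (y axis) for each library of the 8 sgKLF5 comparisons (x axis), blue for sgRosa and red for sgKLF5. The sgKLF5 points lie above sgRosa in AsPC-1 experiment 1 and SUIT-2 and below it in AsPC-1 experiment 3, T3M-4 experiment 2 and both BxPC-3 experiments, they overlap it in CFPAC-1 and lie on both sides of it in T3M-4 experiment 1, and single libraries sit apart at -0.63 in SUIT-2 sgRosa and at -0.76 in T3M-4 experiment 1 sgKLF5.

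The second question was what the members do without RUVBL1 or RUVBL2. Over 9 comparisons, of which the RUVBL1 and RUVBL2 ones of an experiment share their sgRosa libraries, LSS fell in 7, ACAT2 and FADS1 in 6 each, and FASN, SREBF1, ACACA (the carboxylase that makes malonyl-CoA), ELOVL6 (a fatty acid elongase), FDPS, FDFT1 (squalene synthase) and CYP51A1 (lanosterol demethylase) in 5 each. SC5D rose in 7 and fell in none. Of all genes, 5.48% to 37.3% fell and 2.83% to 45.9% rose in single comparisons. How many genes were called as often as these members was not counted. After rescaling SC5D rose in 5, FASN, FADS1 and ACLY, which makes acetyl-CoA from citrate, fell in 8 each (ACLY in 2 before), SREBF1 fell in 3, and ACAT2, FDPS and CYP51A1 each rose in 1. Reads of ACAT2 and CYP51A1 are uncertain, since 22.2% and 70.8% of their exonic bases (hg38) are shared with other genes. The partners of ACAT2 lie on the opposite strand, and the library kit does not keep strand. Those of CYP51A1 include genes on its own strand, which a stranded library would not separate either.

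In CFPAC-1 FASN fell most. It was at 81.6, 124, 99.9 and 65.4 TPM in sgRosa, at 27.3, 36.9, 43.9 and 41.7 in sgRUVBL1 (log2 difference -1.27, SE 0.17, adjusted p = 7.17e-05) and at 39.6 and 46.6 in 2 sgRUVBL2 libraries (log2 difference -1.05, SE 0.20, adjusted p = 0.00545). Every knockout library was below every control, as the rule asks. With sgRUVBL1 8 members fell, 6 of them in the fatty acid arm, and 4 rose, against 37.3% and 6.54% of all genes (after rescaling 4 fell and 11 rose, against 17.4% and 18.5%). FADS1 (-0.68), ACACA (-0.61) and SREBF1 (-0.55) fell, and SC5D (0.42) and HMGCS1 (0.35) rose. With sgRUVBL2 2 fell, FASN and SREBF1 (-0.70), and none rose, against 9.26% and 2.83% (after rescaling 1 fell and 1 rose, against 5.99% and 5.08%). There 1 member was higher at an unadjusted limma p under 0.05, against 919 of 12748 genes. For sgRUVBL1 the number that rose was 1 without sgRosa replicate 1 and 2 without sgRUVBL1 replicate 1, 2, 3 or 4 or sgRosa replicate 2 or 3. For sgRUVBL2 the number that fell was 0 without sgRUVBL2 replicate 1 and 1 without sgRUVBL2 replicate 2 or sgRosa replicate 1, 2 or 3. After rescaling the ACACA and SREBF1 calls with sgRUVBL1 and the SREBF1 call with sgRUVBL2 were lost. With only the groups compared in the fit the ACACA call and both sgRUVBL2 calls were lost, and with no filter the SREBF1 call with sgRUVBL2.

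AsPC-1 lost RUVBL1 in experiments 2 and 3. In experiment 2 SREBF1 was at 31.8, 30.8, 33.4 and 34.7 TPM in sgRosa and at 17.3, 16.7, 17.9 and 17.4 in sgRUVBL1 (log2 difference -0.88, SE 0.10, adjusted p = 2.91e-06). SC5D was at 7.12, 6.65, 8.86 and 7.68 TPM against 14.5, 13.9, 14.5 and 15.4 (log2 difference 0.87, SE 0.09, adjusted p = 1.10e-06). IDI1, which isomerises isopentenyl diphosphate, was at 48.2, 48.3, 61.6 and 55.04 TPM against 92.6, 97.7, 98.5 and 96.6 (log2 difference 0.85, SE 0.08, adjusted p = 3.65e-07). These 3 were tight within each group, and their lack of overlap is what the rule asks for. 13 members rose, with TM7SF2 (0.90) and MVK (0.71) among the largest, and 10 fell, with ACAT2 (-0.71), FASN (-0.70) and ACACA (-0.60), against 30% and 25.8% of all genes. In experiment 3 18 fell and 3 rose, against 15.2% and 36.6% (after rescaling 23 fell and 1 rose, against 25.2% and 24.8%), and SCD was at 146, 139, 207 and 179 TPM (log2 difference -0.83, SE 0.14, adjusted p = 1.21e-04) against the sgRosa values given above.

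ACAT2 (-1.33), DHCR7 (-0.97) and ACSS2 (-0.86) fell most in AsPC-1 experiment 3, INSIG1 fell (-0.78), and SC5D rose (0.63). With sgRUVBL2 in the same experiment 11 members fell and 1, SC5D (0.74), rose, against 11% and 32.2% (after rescaling 17 fell and 1 rose, against 20.9% and 19.97%). For sgRUVBL2 with 1 library fewer the number that fell was 6 without sgRUVBL2 replicate 4 or sgRosa replicate 3 or 4 and 7 without sgRUVBL2 replicate 1, and the number that rose was 2 without sgRUVBL2 replicate 4 or sgRosa replicate 3 or 4. SCD did not pass there (-0.17, adjusted p = 0.350), with 248, 279, 276 and 243 TPM. The effect of sgRUVBL1 differed between experiments 2 and 3 for 17 of 29 members, all lower in experiment 3, where 23.8% of all genes differed. SREBF1 fell in both, and the difference of its effects was 0.04 (SE 0.12, adjusted p = 0.853), while SQLE rose in experiment 2 (0.49) and fell in experiment 3 (-0.37, with overlapping groups).

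In T3M-4 experiment 2 sgRUVBL1 lowered 11 members and raised 6, against 14.6% and 45.9% of all genes, and sgRUVBL2 lowered 15 and raised 4, against 15.2% and 39.3%. After rescaling 17 fell and 2 rose, against 28.1% and 28.7% with sgRUVBL1, and 18 fell and 1 rose, against 26.7% and 26.7% with sgRUVBL2. For sgRUVBL2 the number that rose was 2 without sgRUVBL2 replicate 2. ACAT2 was at 73.9, 60.9, 63.8 and 64.6 TPM in sgRosa, 38.6, 36.5 and 34.4 in 3 sgRUVBL1 libraries and 42.8, 33.2, 38.8 and 42.4 in sgRUVBL2 (log2 differences -0.83 and -0.73). FADS1 was at 49.7, 50.4, 65.1 and 48.7 TPM, 35.1, 28.98 and 35.3 and 23.4, 37.6, 31.4 and 31.1 in the same order (-0.67 and -0.78). Both fell, with the lack of overlap that the rule asks for. SCD fell by 0.56 and 0.63 on the log2 scale, INSIG1 by 0.40 and 0.41, and TM7SF2 rose (0.54 and 0.65).

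In BxPC-3 experiment 2 SCD and SREBF1 did not pass with either ATPase knockout. SCD was at 371, 503, 497 and 588 TPM in sgRUVBL1 (-0.12, adjusted p = 0.699) and at 418, 624 and 492 in 3 sgRUVBL2 libraries (-0.06, 0.873). SREBF1 was at 156, 182, 162 and 204 TPM (-0.13, 0.749) and at 155, 210.0 and 75.8 (-0.50, 0.174). Replicate 3 of sgRUVBL2 was low in SREBF1 and also in FASN, at 40.2 TPM against 101.3 and 126. With sgRUVBL1 6 members fell, among them FADS1 (-0.66) and ACAT2 (-0.50), and 1, SC5D (0.27), rose, against 7.67% and 8.29% of all genes. With sgRUVBL2 3 fell, FASN (-0.82), FADS1 (-0.56) and LSS (-0.39), and none rose, against 5.48% and 4.27%. By an unadjusted limma p under 0.05 its members were 0 higher and 9 lower, against 1282 and 2098 of 12380 genes. Leaving out single libraries, with sgRUVBL1 the number that rose was 0 without sgRUVBL1 replicate 1, 2 or 4 or sgRosa replicate 2, 3 or 4 and 2 without sgRUVBL1 replicate 3. With sgRUVBL2 the number that fell was 1 without sgRUVBL2 replicate 3 or sgRosa replicate 1, 2, 3 or 4, 5 without sgRUVBL2 replicate 1 and 7 without sgRUVBL2 replicate 2. The SC5D call was lost after rescaling and with only the groups compared in the fit, as were the FADS1 and LSS calls with sgRUVBL2 under the latter. The LSS call was also lost with a pseudocount of 0.1 TPM and with no filter.

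The knockouts of an experiment were then set against each other. In BxPC-3, 19 members were higher and 1 lower in sgRUVBL1 than in sgKLF5, against 18.8% and 25.2% of all genes. For sgRUVBL2 the numbers were 18 and 1, against 13.6% and 26.4%. Counting either direction, 44% and 40% of all genes differed. SCD differed by 2.06 (SE 0.17) and 2.12 (SE 0.19), SREBF1 by 1.66 and 1.29, and the member lower in both was PMVK. In T3M-4 12 and 11 members differed from sgKLF5, where 45.8% and 39.7% of all genes did, with SREBF1 (0.87 and 0.82), SCD (0.75 and 0.68) and INSIG1 (0.63 and 0.62) higher. In AsPC-1 experiment 3 15 and 12 members differed (58.5% and 52.1% of all genes), with FADS1 (-1.27 and -0.92) and DHCR7 (-0.91 and -0.47) lower. In CFPAC-1 12 and 4 differed (30.9% and 15.6%), FASN being lower (-0.87 and -0.65) and SCD higher (0.46 and 0.68).

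The 2 ATPase knockouts differed from each other in 8 members of AsPC-1 experiment 3, 7 of them higher in sgRUVBL2, with STARD4 (0.67), SCD (0.66), MSMO1 (0.65) and ACAT2 (0.63), where 3.71% of all genes differed. The count was 0 when only these 2 groups were fitted. No member differed by limma in T3M-4, BxPC-3 or CFPAC-1, where 0.0226%, 0.0323% and 0.0235% of all genes did. The members at an unadjusted limma p under 0.05 were 0 higher and 2 lower, 4 and 1, and 2 and 0. All genes gave 447 higher and 1044 lower of 13246, 516 and 1203 of 12380, and 1601 and 274 of 12748 in that order. Against sgCDK1, whose target drives mitosis, sgRUVBL1 and sgRUVBL2 differed in 13 and 17 members in AsPC-1 experiment 3 (48.2% and 41.5% of all genes), in 8 and 7 in T3M-4 (29.1% and 23%), in 3 and 6 in BxPC-3 (21.6% and 19%) and in 9 and 4 in CFPAC-1 with its doubtful label (43.7% and 16%). ACACA was lower than in sgCDK1 in both AsPC-1 contrasts (-0.86 and -0.58) and TM7SF2 higher (1.33 and 0.89).

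The sgCHD4 libraries of AsPC-1, 4 against 4 sgRosa, had most members lower. INSIG1 was at 28.4, 27.6, 24.3 and 28.9 TPM in sgRosa and at 7.79, 7.64, 9.005 and 9.35 in sgCHD4 (log2 difference -1.58, SE 0.09, adjusted p = 6.87e-08). SREBF2 was at 41.5, 45.4, 41.5 and 42.5 TPM against 18.3, 15.8, 20.6 and 18.9 (log2 difference -1.18, SE 0.08, adjusted p = 3.05e-07). ELOVL6 went the other way, at 35.8, 37.6, 33.8 and 30.958 TPM against 77.3, 62.96, 71.7 and 74.5 (log2 difference 1.03, SE 0.08, adjusted p = 6.71e-07). None of the 3 overlapped, which the rule that picked them asks for. 20 of 29 members fell and 2 rose, against 26.7% and 23.3% of all genes, with all 4 regulators, 7 of 9 sterol genes and 5 of 7 mevalonate genes lower. DHCR7 (-1.09), SC5D (-1.02), PMVK (-0.97), SQLE (-0.63), SCD (-0.56), HMGCS1 (-0.47), FASN (-0.43) and SREBF1 (-0.43) fell, and FADS1 (0.62) was the other member that rose. SC5D fell here and rose in 7 of the 9 ATPase comparisons, which were made in other experiments and not tested against this one.

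The remaining knockouts moved fewer members. With sgSERPINB5 in AsPC-1 no member passed in limma, and 0.0172% of all genes rose and 0.0172% fell. Without adjustment, 2 members were higher and 1 lower at a limma p under 0.05, against 370 and 432 of 11645 genes. With sgCDK1 14 fell in AsPC-1 experiment 3, led by TM7SF2 (-0.97), CYP51A1 (-0.77) and SQLE (-0.71), and none rose, against 6.44% and 10.3%. Unadjusted, 1 member was higher at a limma p under 0.05, against 2182 of 12224 genes. Leaving out 1 library the number that fell was 5 without sgCDK1 replicate 1, 7 without sgCDK1 replicate 2 and 9 without sgRosa replicate 3 or 4. SQLE was there at 42.9 and 48.5 TPM against 63.1, 65.4, 84.04 and 93.6. In BxPC-3 experiment 2 5 fell, among them FADS1 (-0.75), INSIG1 (-0.63) and HMGCS1 (-0.56), and none rose, against 2.12% and 3.71%. Unadjusted, 0 members were higher at a limma p under 0.05, against 1353 of 12380 genes. Leaving out 1 library the number that fell was 0 without sgCDK1 replicate 2, 1 without sgCDK1 replicate 1 and 3 without sgRosa replicate 3 or 4. In T3M-4 experiment 2 2 rose, TM7SF2 (0.51) and STARD4 (0.39), and ACAT2 fell (-0.39), against 13% and 3.85% (after rescaling 1 rose and 5 fell, against 8.01% and 8.88%). There the number that fell was 0 without sgCDK1 replicate 2, and the number that rose was 1 without sgCDK1 replicate 2. The CFPAC-1 libraries labelled sgCDK1 had none, with 0% and 0% of all genes called by limma. Their members at an unadjusted limma p under 0.05 were 5 higher and 0 lower, against 1054 and 423 of 12748 genes. The SQLE call in AsPC-1 was lost without sgCDK1 replicate 1, the INSIG1 call in BxPC-3 with no filter, the 3 calls in T3M-4 with only the groups compared in the fit, and the STARD4 call there also after rescaling.

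With sgRpa3 the SREBF1 and SCD direction was opposite to that with sgKLF5 in BxPC-3 experiment 2, a pair of comparisons that share the sgRosa libraries. SCD was at 885 and 899.7 TPM in 2 sgRpa3 libraries (log2 difference 0.76, SE 0.21, adjusted p = 0.0151) and SREBF1 at 357 and 339.8 (log2 difference 0.86, SE 0.26, adjusted p = 0.0261). ACSS2 was the other member that rose (0.63). 9 fell, led by ACAT2 (-0.76), HMGCS1 (-0.70) and IDI1 (-0.55), so 3 up and 9 down stood against 9.12% and 11.6% of all genes. With 1 library dropped the number that fell was 3 without sgRpa3 replicate 1 and 4 without sgRpa3 replicate 2, and the number that rose was 0 without sgRpa3 replicate 1 or 2 and 1 without sgRosa replicate 1 or 2. In T3M-4 experiment 2 4 rose, among them SREBF1 (0.73), SCD (0.63) and TM7SF2 (0.49), and PMVK fell (-0.29), against 18.4% and 6.2% (after rescaling 3 rose and 5 fell, against 12.4% and 14.4%). There the number that fell was 0 without sgRosa replicate 1 or 4 or sgRpa3 replicate 2 and 2 without sgRosa replicate 3 or sgRpa3 replicate 1, and the number that rose was 1 without sgRpa3 replicate 2, 2 without sgRpa3 replicate 1 and 7 without sgRosa replicate 3. In the CFPAC-1 libraries labelled sgRpa3 MVD (0.57), LSS (0.53) and TM7SF2 (0.44) rose and none fell, against 8.17% and 3.39% (after rescaling 2 rose and 0 fell, against 5.01% and 6.54%). Unadjusted, 0 members were lower at a limma p under 0.05, against 1052 of 12748 genes. The number that rose was 0 without sgRpa3 replicate 2, 1 without sgRpa3 replicate 1 and 5 without sgRosa replicate 2. No member passed in limma in AsPC-1 experiment 3 (0.638% of all genes up, 0.0164% down), BxPC-3 experiment 1 (0.29% and 0.0161%) or T3M-4 experiment 1 (0% and 0%). There the members at an unadjusted limma p under 0.05 were 10 up and 1 down, 1 and 4, and 0 and 0. All genes gave 807 up and 274 down of 12224, 326 and 698 of 12398, and 148 and 41 of 12636. The SREBF1 call in BxPC-3 was lost with no filter, the SCD, TM7SF2 and PMVK calls in T3M-4 with only the groups compared in the fit, the SCD call there also without either sgRpa3 library, the PMVK call also with no filter, and the TM7SF2 call in CFPAC-1 after rescaling.

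The third question was what 24 hours of CB-6644 does. In the 6 lines without a resistance variant SC5D, IDI1 and FADS2 rose in all 6, INSIG1 fell in the 5 where it was measured, and SREBF1 fell in 5, with T3M-4 at -0.51 (adjusted p = 0.261). LPIN1, STARD4, HSD17B7 (a sterol ketone reductase), TM7SF2 and FDPS rose in 5 each. After rescaling SC5D and IDI1 rose in 6, FADS2 in 5, FDPS in 1 and the other 4 in 4 each, INSIG1 and SREBF1 fell in 5 each, and SCD and FASN, which fell in 2 each before, fell in 5 each. CYP51A1 fell in 4 before rescaling and in 6 after it, and ACAT2 in 3 and 5. In AsPC-1 and T3M-4 these counts used the DMSO libraries of all 3 vectors. The SCD falls after rescaling include AsPC-1, where deposited SCD values with CB-6644 were not below the Lv-Empty DMSO library. They leave out T3M-4, where SCD was below that library. Most genes tested moved in the 4 parental lines, so the counts stand beside high backgrounds. Over the 6 lines 19.1% to 53.9% of all genes rose and 15.2% to 29.7% fell. How many genes were called in as many lines was not counted.

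In T84 SREBF1 was at 26.1, 25.7, 24.3 and 26.2 TPM in DMSO and at 16.1, 15.9, 16.9 and 15.1 in CB-6644 (log2 difference -0.64, SE 0.06, adjusted p = 1.02e-07). SC5D was at 14.98, 17.4, 17.3 and 18.1 TPM against 33.4, 33.9, 32.9 and 33.6 (log2 difference 0.95, SE 0.06, adjusted p = 2.91e-09). FADS2 was at 1.13, 1.21, 1.11 and 1.08 TPM against 7.61, 6.79, 7.51 and 7.27 (log2 difference 1.96, SE 0.08, adjusted p = 3.52e-11). The 3 genes did not overlap between groups, as the rule that picked them asks, and FADS2 made the largest rise of any member in the 6 lines. 15 members rose and 3 fell, against 47.2% and 24.2% of all genes (after rescaling 11 rose and 9 fell, against 35.5% and 35.3%). Without DMSO replicate 1 the number that fell was 5. INSIG1 fell (-0.66), as did FASN (-0.27), while SCD (-0.14, adjusted p = 0.109) and SQLE (-0.05, 0.469) did not pass.

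A375 lost the most SREBF1, from 69.01, 64.1, 91.1 and 94.6 TPM in DMSO to 19.9, 19.8, 23.6 and 21.5 (log2 difference -1.84, SE 0.12, adjusted p = 4.45e-08). SCD was at 106, 102, 195 and 199 TPM against 87.1, 86.7, 83.4 and 85.3 (log2 difference -0.73, SE 0.20, adjusted p = 0.00523). INSIG1 was at 12.4, 11.8, 23.6 and 25.5 TPM against 8.99, 8.88, 11.4 and 9.39 (log2 difference -0.79, SE 0.22, adjusted p = 0.00618). The DMSO libraries split into replicates 1 and 2, which were low, and replicates 3 and 4, which were high, and treated libraries lay below both pairs. SC5D (0.95) and IDI1 (0.90) rose most. 12 members rose and 9 fell, against 51.5% and 29.7% of all genes (after rescaling 8 rose and 12 fell, against 40.4% and 40.03%).

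In H1048 SREBF1 was at 52.6, 52.3, 42.4 and 44.7 TPM against 29.6, 31.8, 30.999 and 28.4 (log2 difference -0.65, SE 0.07, adjusted p = 2.82e-06), and 13 members rose and 9 fell, against 53.9% and 24% (after rescaling 5 rose and 14 fell, against 37.7% and 37.4%). FADS1 (-0.72), SQLE (-0.47), INSIG1 (-0.43) and SCD (-0.37) fell, and SC5D (0.84) and TM7SF2 (0.79) rose. In RH30 SREBF1 was at 34.2, 35.9, 32.9 and 33.1 TPM against 15.4, 17.5, 15.8 and 15.6 (log2 difference -1.04, SE 0.05, adjusted p = 1.001e-09), with 14 of 28 members higher and 7 lower, against 50.4% and 27.3% (after rescaling 13 rose and 11 fell, against 37.9% and 38.3%). FADS2 (1.22), STARD4 (0.97) and SC5D (0.82) rose, ELOVL6 fell (-0.83), HMGCS1 rose (0.59), and SCD was at 328, 328, 337 and 332 TPM in DMSO and 344, 329, 338 and 335 in CB-6644 (0.02, adjusted p = 0.364). FADS2 was close to the median of all genes in A375 (0.25, all genes 0.16) and H1048 (0.20, all genes 0.18).

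The inhibitor's effect differed between T84, A375, H1048 and RH30 for 22 of 29 members by limma's F test, where 86.2% of all genes differed. INSIG1 is counted among the 22 although RH30, where it was near 0 TPM and its effect (-0.01) could hardly move, entered the test, so that call rests on a line that lacks the transcript. SREBF1 was among them (adjusted p = 4.13e-10), its fall being largest in A375. SC5D did not pass (adjusted p = 0.148), with differences of 0.95, 0.95, 0.84 and 0.82 in the order above, and neither did MVK, PMVK, MVD, SREBF2, ACACA or LPIN1.

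**Figure D4:**
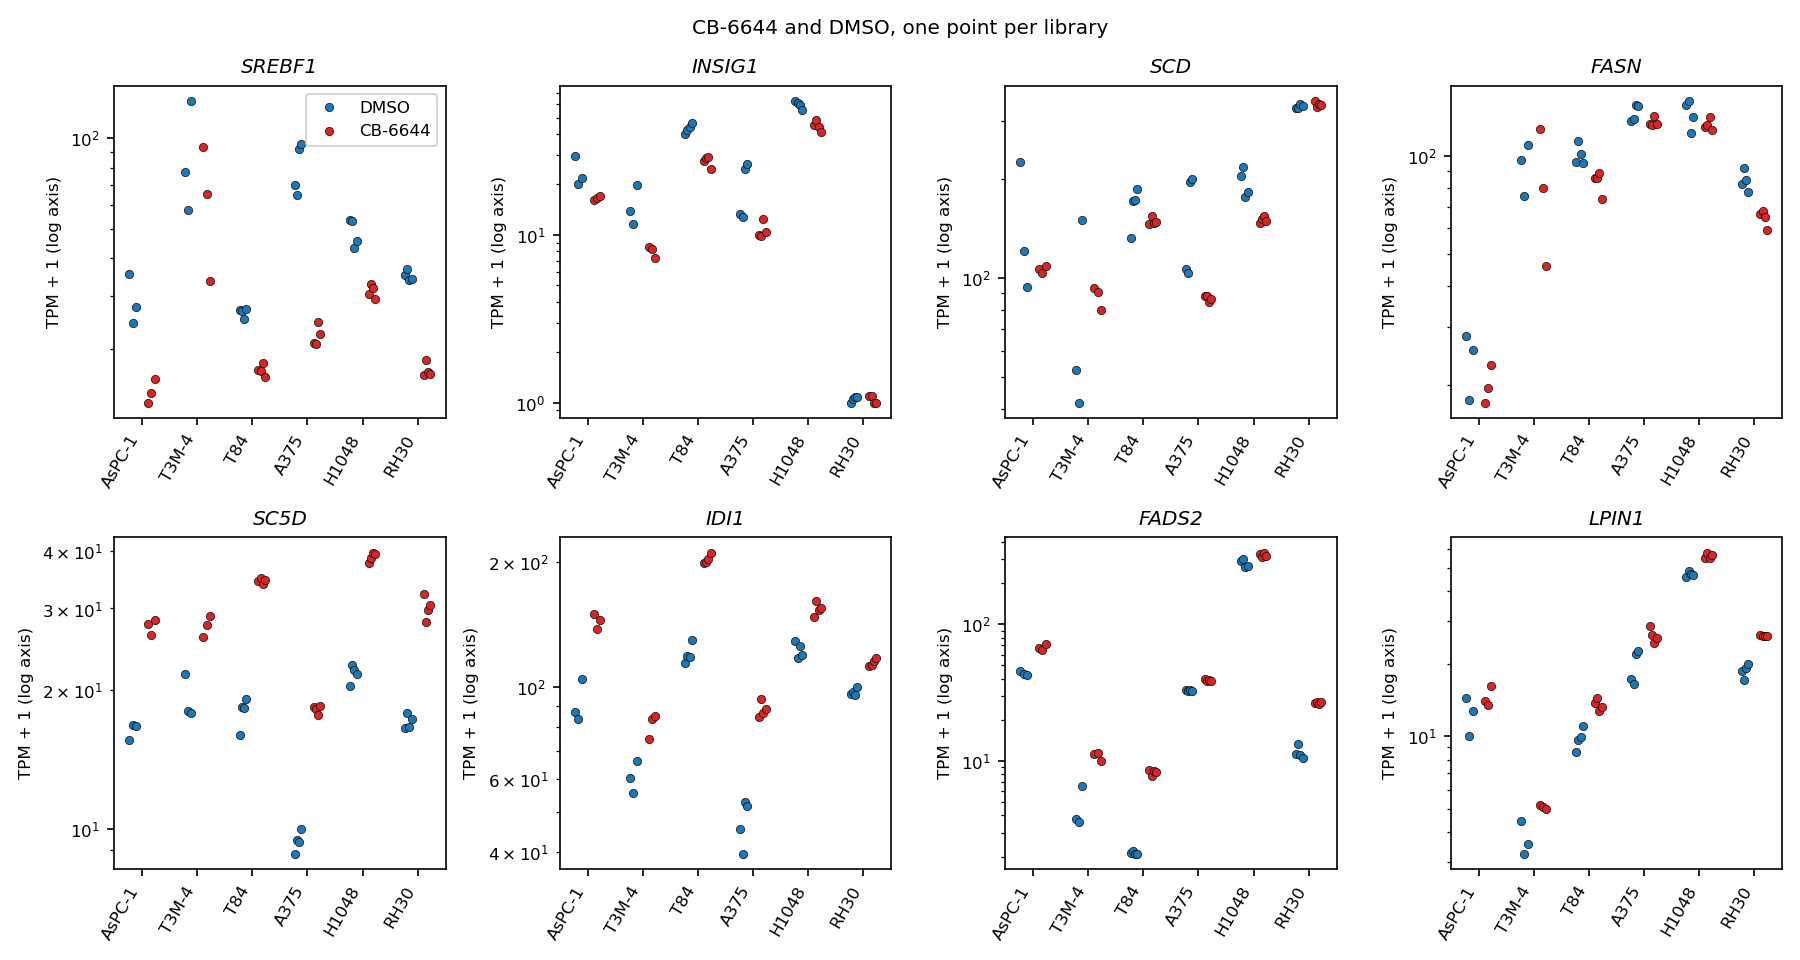
TPM + 1 on a log axis (y) of 8 members in each library treated with DMSO (blue) or CB-6644 (red), for 6 lines (x), the AsPC-1 and T3M-4 cells in red carrying Lv-Empty and their blue points being the 3 DMSO libraries, 1 for each vector. SC5D and IDI1 lie higher in every line with CB-6644, SREBF1 lies lower in T84, A375, H1048, RH30 and AsPC-1, and INSIG1 is near 0 in RH30.

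In AsPC-1 and T3M-4 each vector had 3 CB-6644 libraries and 1 DMSO library. The 3 DMSO libraries served together as control, so a difference between vectors enters both the estimate and the error. In T3M-4 Lv-Empty cells SCD with CB-6644 lay below the DMSO library of that vector, yet its log2 difference from the 3 together was 0.34. Calls and counts in these 2 lines can therefore hold differences between vectors. AsPC-1 Lv-Empty cells held SREBF1 at 12.3, 13.3 and 14.95 TPM with CB-6644, against 26.5, 34.4 and 23.4 in the Lv-Empty, RUVBL1_A62T and RUVBL2_dF109 DMSO libraries (log2 difference -0.99, SE 0.16, adjusted p = 2.19e-04). 11 members rose and 8 fell, against 47.2% and 17.2% (after rescaling 6 rose and 14 fell, against 30.7% and 31.4%), with TM7SF2 (1.05), SC5D (0.75) and IDI1 (0.66) highest and INSIG1 (-0.50) lower. SCD was not called (-0.37, adjusted p = 0.153), and its DMSO libraries ran from 93.05 through 119.6 to 224 TPM. T3M-4 Lv-Empty cells held FADS2 at 10.2, 10.4 and 8.94 TPM, against 5.60, 2.75 and 2.57 in DMSO in the same order (log2 difference 1.28, SE 0.20, adjusted p = 6.82e-04), and INSIG1 fell (-0.88). TM7SF2 rose there from 20.2, 15.3 and 15.52 TPM in DMSO to 54.8, 54.03 and 52.4 (log2 difference 1.61, SE 0.10, adjusted p = 3.24e-06). 7 members rose and 2 fell, against 19.1% and 15.2%.

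With the resistance variants in AsPC-1, 4 rose and none fell with RUVBL1_A62T, against 10.8% and 1.98%, and 7 rose and 1 fell with RUVBL2_dF109, against 29.3% and 4.1%. With RUVBL1_A62T 1 member was lower at an unadjusted limma p under 0.05, against 651 of 12257 genes. After rescaling 1 rose and 2 fell, against 6.404% and 6.91% with RUVBL1_A62T, and 3 rose and 3 fell, against 14.4% and 15.7% with RUVBL2_dF109. For RUVBL1_A62T the number that fell was 1 without RUVBL1_A62T DMSO replicate 1, and the number that rose was 0 without RUVBL1_A62T CB6644 replicate 1, 1 without RUVBL1_A62T CB6644 replicate 3 or RUVBL2_dF109 DMSO replicate 1, 2 without RUVBL1_A62T CB6644 replicate 2 and 7 without RUVBL1_A62T DMSO replicate 1. For RUVBL2_dF109 the number that fell was 0 without Lv-Empty DMSO replicate 1 or RUVBL2_dF109 CB6644 replicate 1, 2 or 3 or RUVBL2_dF109 DMSO replicate 1. In T3M-4 3 rose and 1 fell with RUVBL1_A62T (45.4% and 4.6%) and 4 rose and 2 fell with RUVBL2_dF109 (34.3% and 3.34%). After rescaling 1 rose and 11 fell, against 12.6% and 16.7% with the former, and 1 rose and 12 fell, against 10.3% and 13.7% with the latter. Without 1 library, for the former the number that fell was 2 without RUVBL1_A62T DMSO replicate 1 and 3 without RUVBL2_dF109 DMSO replicate 1, and the number that rose was 5 without RUVBL1_A62T DMSO replicate 1. For the latter the number that fell was 0 without RUVBL2_dF109 CB6644 replicate 1 or 2, 1 without Lv-Empty DMSO replicate 1 or RUVBL2_dF109 CB6644 replicate 3 and 4 without RUVBL1_A62T DMSO replicate 1, and the number that rose was 7 without Lv-Empty DMSO replicate 1. TM7SF2 with RUVBL1_A62T in T3M-4 turned from 0.29 to -0.04 after rescaling. Compared directly, all in CB-6644, Lv-Empty differed from RUVBL1_A62T in 19 members and from RUVBL2_dF109 in 16 in AsPC-1, where 51.1% and 47.2% of all genes differed, and in 12 and 7 in T3M-4, where 50.6% and 34.6% did.

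In AsPC-1 SREBF1 with CB-6644 was at 41.97, 32.9 and 33.6 TPM in RUVBL1_A62T cells and 33.3, 37.6 and 24.2 in RUVBL2_dF109 cells, above the Lv-Empty values (Lv-Empty minus variant -1.35, adjusted p = 3.65e-05, and -1.15, adjusted p = 1.37e-04). SCD was at 105, 102 and 108 TPM in Lv-Empty, 189, 188 and 191 in RUVBL1_A62T and 159, 152 and 161 in RUVBL2_dF109 (-0.84 and -0.58). The order of SCD among the vectors was the same in the single DMSO libraries given above. IDI1 was higher in Lv-Empty (0.56 and 0.64), as were SC5D (0.57 and 0.38) and FADS2 (0.46 and 0.34).

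In T3M-4 SCD went the other way, at 92.2, 89.3 and 78.6 TPM in Lv-Empty with CB-6644, 44.3, 45.3 and 45.2 in RUVBL1_A62T and 39.8, 38.8 and 37.9 in RUVBL2_dF109 (Lv-Empty minus variant 0.93 and 1.13). Its DMSO libraries were already apart, at 149, 51.4 and 40.7 TPM in that order. SREBF1 with CB-6644 ran from 32.7 to 92.5 TPM in Lv-Empty, across the 66.6 to 77.9 of RUVBL1_A62T, and the difference did not pass (-0.31, adjusted p = 0.455). INSIG1 was lower in Lv-Empty than in RUVBL1_A62T (-0.55, adjusted p = 0.0161) and not called against RUVBL2_dF109 (-0.28, adjusted p = 0.192), with 18.8 TPM in Lv-Empty DMSO against 7.47, 7.25 and 6.26 with CB-6644. FADS2 was higher in Lv-Empty (1.36 and 1.17), in DMSO too.

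**Figure D5:**
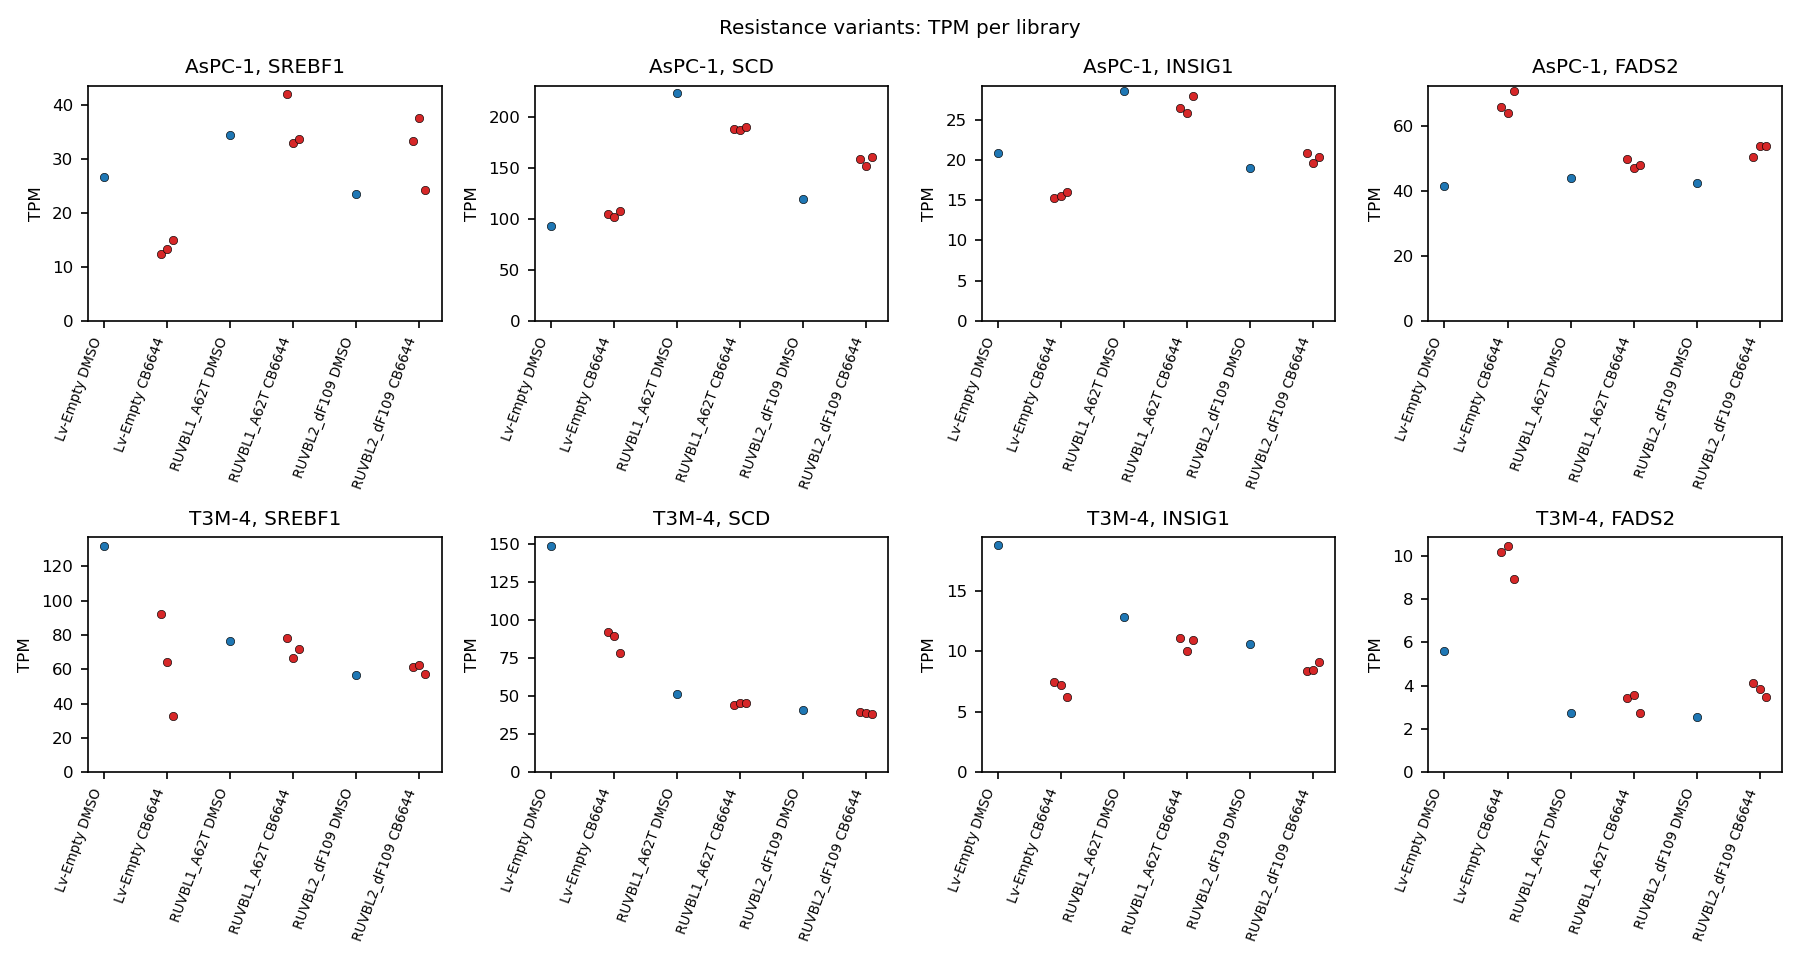
TPM (y, from 0) of SREBF1, SCD, INSIG1 and FADS2 in AsPC-1 and T3M-4 cells by vector and treatment (x), 1 point for each library. With CB-6644 AsPC-1 SREBF1 is at 12.3 to 14.95 in Lv-Empty and higher with either variant, and in T3M-4 the SCD of Lv-Empty cells is above both variants in DMSO and in CB-6644.

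The pathway's other genes, up to 27 listed beside the members (SREBP escort and processing, LXR and sterol export, trafficking, further enzymes), moved in both directions. After KLF5 loss the numbers that rose and fell were 9 and 1 of 26 in AsPC-1 experiment 1 (against 17.1% and 8.81% of all genes, and 10 and 1 after rescaling), 7 and 5 of 26 in AsPC-1 experiment 3 (against 15.4% and 12.3% of all genes, and 7 and 7 after rescaling), 8 and 2 of 27 in T3M-4 experiment 2 (against 23.4% and 11.2% of all genes, and 7 and 5 after rescaling) and 2 and 5 of 26 in BxPC-3 experiment 2 (against 21% and 13.6% of all genes, and 2 and 7 after rescaling). In BxPC-3 experiment 2 SLC25A1, the mitochondrial citrate carrier (-0.57), and INSIG2 (-0.48) fell and SOAT1, which esterifies cholesterol (0.45), rose. SOAT1 also rose in AsPC-1 experiments 1 (0.90) and 3 (0.77), as did ME1, the malic enzyme that supplies NADPH (1.17 and 1.03). With sgCHD4 they were 5 and 9 of 26 in AsPC-1 (against 23.3% and 26.7% of all genes, and 7 and 9 after rescaling). With CB-6644 they were 14 and 5 of 25 in T84 (against 47.2% and 24.2% of all genes, and 10 and 7 after rescaling), 14 and 9 of 27 in A375 (against 51.5% and 29.7% of all genes, and 8 and 12 after rescaling), 17 and 3 of 25 in H1048 (against 53.9% and 24% of all genes, and 13 and 7 after rescaling) and 17 and 4 of 25 in RH30 (against 50.4% and 27.3% of all genes, and 12 and 6 after rescaling). In Lv-Empty cells they were 16 and 7 of 26 in AsPC-1 (against 47.2% and 17.2% of all genes, and 7 and 8 after rescaling) and 9 and 4 of 27 in T3M-4 (against 19.1% and 15.2% of all genes, and 6 and 8 after rescaling). NPC1, which releases cholesterol from lysosomes, rose in the first 4 (0.69, 0.47, 0.62 and 0.39), and NR1H2, a sterol-sensing nuclear receptor, fell in all 4 (-0.58, -0.61, -0.84 and -0.78), and both also passed in all 4 after rescaling.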

How the data were processed

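RNA-seq was performed on polyadenylated RNA with unstranded single-end libraries. The authors used kallisto for pseudo-alignment to hg38 and tximport to sum transcripts to genes. They deposited TPM in 8 tables without pooling replicates. They also dropped transcripts of low abundance, by a cutoff not given in the sources used here. Depth per library is unknown, so no counting interval is given. Groups and replicate numbers were taken from the labels. Exact duplicates were looked for and none were found.

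From the deposited TPM, log2(TPM + 1) was tested with limma 3.58.1 (R 4.3.3, trended moderation of the variance). Genes entered a fit when their TPM averaged 1 or more there. All groups of a line and experiment shared a fit. P-values are two-sided and were adjusted by Benjamini-Hochberg over all genes tested, and "rose", "fell" and "differed" mean an adjusted p under 0.05. The 3 DMSO libraries of AsPC-1 and of T3M-4, 1 for each vector, served jointly as controls. The study's count test was not used because the values are TPM. The code was tested on simulated data. Alternatives were a pseudocount of 0.1 TPM, no filter or a minimum of 5 TPM, rescaled libraries, only the groups compared, a replicate block, each library left out and, with vectors, the DMSO library of the same vector.

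Members are named because the list fixes them. In each comparison the rule put first the 3 members with the largest rises and the 3 with the largest falls among those called whose treated libraries all lay beyond all controls, and allowed HMGCS1, SQLE, INSIG1, SREBF1, SREBF2, FASN and SCD anywhere. Values in every library are printed for a choice of these, made after the values were seen, and other members are given by test or range. Lack of overlap in members picked by the rule follows from the rule and adds no support to their tests. The members and lists were chosen with earlier results of these data known. Promoters are from RefSeq (GRCh38.p14) and exon overlaps from GENCODE on hg38.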

Additional observations from a re-analysis of the deposited data

Results flagged for a closer look

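For 192 sets of values (the level of a named member or the median of the members in 1 group of 4 to 10 libraries), the highest or lowest library was set against the others by Dixon's ratio, which chance alone passes in about 1 in 20 sets, and 13 sets passed it. In 4 it was the library's median over the members, as the log2 difference from the control mean, that stood apart. SUIT-2 sgRosa replicate 1 lay at -0.63 on the log2 scale, against 0.20 to 0.21 in the others of its group, while its median over all genes was -0.49. T3M-4 experiment 1 sgKLF5 replicate 2 lay at -0.76 against 0.29 to 0.47, with -0.82 over all genes. AsPC-1 experiment 2 sgSERPINB5 replicate 4 lay at -0.19 against 0.04 to 0.07, and T3M-4 experiment 2 sgRosa replicate 3 at 0.15 against -0.06 to -0.02.

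Single genes stood apart in the other 9 sets. In A375 DMSO, replicate 4 held HSD17B7, a late sterol enzyme, at 17.1 TPM against 19.2 to 19.49 in the others, and in AsPC-1 experiment 2 sgRUVBL1, replicate 1 held FASN at 16.98 against 18.6 to 18.8. BxPC-3 experiment 2 sgRosa replicate 1 was high for IDI1 at 116 against 90.1 to 93.3 TPM and for SC5D at 7.83 against 6.89 to 6.99. SC5D, which introduces a double bond late in the sterol pathway, also stood apart in sgRUVBL1 replicate 3 of that experiment, at 8.18 against 8.97 to 9.13 TPM, and in T3M-4 experiment 2 sgRUVBL2 replicate 2, at 27.5 against 22.6 to 23.2. SREBF1 was at 17.5 against 15.4 to 15.8 TPM in RH30 with CB-6644, replicate 2, and TM7SF2 at 53.5 against 47.6 to 48.1 in T3M-4 experiment 1 sgKLF5, replicate 2, the library whose member median was also apart. FADS1 was at 65.1 against 48.7 to 50.4 TPM in T3M-4 experiment 2 sgRosa replicate 3, again a library whose member median was apart.

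The same knockout differed in effect between experiments of a line, by limma on the interaction of knockout and experiment. Every member that differed had the lower effect in the later experiment, but the direction among all genes that differed was not counted. For sgKLF5 in AsPC-1, 12 of 29 members differed between experiments 3 and 1, where 4.6% of all genes did. Among them were HMGCS1 (difference of the log2 effects -0.77), SQLE (-0.84), SREBF2 (-0.79), INSIG1 (-0.68) and SCD (-0.82). In BxPC-3, 12 differed between experiments 2 and 1, where 19.8% of all genes did. INSIG1 was at -1.33, SCD at -1.24, SREBF1 at -0.93 and FASN at -0.69. In T3M-4, 2 differed, MVK at -0.85 and TM7SF2 at -0.89, where 1.67% of all genes did. That count moved with rescaling and with the replicate block, as given below. For sgRUVBL1 in AsPC-1, 17 differed between experiments 3 and 2, where 23.8% of all genes did. SQLE was at -0.86, SREBF2 at -0.67, INSIG1 at -0.62, SCD at -0.58 and HMGCS1 at -0.53.

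The effect of CB-6644 differed between T84, A375, H1048 and RH30 for 22 of 29 members by limma's moderated F test, where 86.2% of all genes differed. The adjusted p was 4.13e-10 for SREBF1, 3.80e-07 for SQLE, 4.37e-07 for HMGCS1, 0.00394 for SCD, 0.00454 for INSIG1 and 0.0138 for FASN. The INSIG1 value includes RH30, where INSIG1 was near 0 TPM, and says nothing of a difference between lines that express it.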

How the results depend on the processing

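The depth behind these TPM values is unknown, so no counting error can be given, and members with low TPM carry more of it than abundant ones. Results rest on 2 to 6 libraries a group, replicates called biological for only some of the experiments, unnamed guides, and an overlap of exons that an unstranded library cannot resolve. Of the 145 results on members named by the rule, 92 passed the threshold with 1 sign under every alternative, and TM7SF2 with RUVBL1_A62T in T3M-4 reversed after rescaling (-0.0436). Rescaling moved the median of all genes by over 0.1 in 20 of 39 comparisons, by -0.31 to 0.24, while the member median relative to that of all genes kept its sign in 38 of 39 and moved by at most 0.0357.

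After rescaling the member median was 0.25 (from 0.33) for sgKLF5 in AsPC-1 experiment 1, 0.11 (from -0.00905) for sgRpa3 in BxPC-3 experiment 1, -0.00991 (from -0.13) for sgKLF5 in CFPAC-1, 0.17 (from -0.0432) for sgRUVBL1 in CFPAC-1, -0.54 (from -0.38) for sgRUVBL1 in AsPC-1 experiment 3, -0.33 (from -0.17) for sgRUVBL2 in AsPC-1 experiment 3, -0.26 (from -0.14) for sgKLF5 in T3M-4 experiment 2, -0.41 (from -0.15) for sgRUVBL1 in T3M-4 experiment 2, -0.39 (from -0.20) for sgRUVBL2 in T3M-4 experiment 2, -0.11 (from 0.0314) for sgCDK1 in T3M-4 experiment 2, -0.0771 (from 0.0868) for sgRpa3 in T3M-4 experiment 2, -0.19 (from -0.00428) for Lv-Empty in AsPC-1, 0.0194 (from 0.13) for RUVBL1_A62T in AsPC-1, -0.0408 (from 0.12) for RUVBL2_dF109 in AsPC-1, -0.35 (from -0.0728) for RUVBL1_A62T in T3M-4, -0.33 (from -0.0277) for RUVBL2_dF109 in T3M-4, -0.00268 (from 0.13) for T84, -0.0785 (from 0.0811) for A375, -0.10 (from 0.0769) for H1048 and -0.0309 (from 0.10) for RH30. With the DMSO library of the same vector alone it was 0.0748 (from -0.00428) for Lv-Empty in AsPC-1, 0.0597 (from 0.13) for RUVBL1_A62T in AsPC-1 and 0.21 (from 0.12) for RUVBL2_dF109 in AsPC-1. In that setting the control is 1 library, which is assumed to vary like the replicated groups of the fit, so no count of members is given for it. With a mean of at least 5 TPM it was 0.0824 (from 0.13) for T84. The number of members that differed was, after rescaling, 14 (from 7) for Lv-Empty against RUVBL2_dF109 in T3M-4, 11 (from 17) for sgRUVBL2 against sgCDK1 in AsPC-1 experiment 3, 6 (from 3) for sgRUVBL1 against sgCDK1 in BxPC-3 experiment 2, 2 (from 4) for sgRUVBL2 against sgCDK1 in CFPAC-1 and 14 (from 2) for the sgKLF5 effect in T3M-4 (experiment 2 minus experiment 1). With only the groups compared in the fit it was 11 (from 7) for Lv-Empty against RUVBL2_dF109 in T3M-4, 0 (from 8) for sgRUVBL2 against sgRUVBL1 in AsPC-1 experiment 3, 11 (from 17) for sgRUVBL2 against sgCDK1 in AsPC-1 experiment 3, 2 (from 7) for sgRUVBL2 against sgCDK1 in T3M-4 experiment 2, 5 (from 3) for sgRUVBL1 against sgCDK1 in BxPC-3 experiment 2 and 1 (from 6) for sgRUVBL2 against sgCDK1 in BxPC-3 experiment 2. With no filter on low values it was 5 (from 8) for sgRUVBL2 against sgRUVBL1 in AsPC-1 experiment 3, 7 (from 12) for sgRUVBL1 against sgKLF5 in CFPAC-1 and 0 (from 4) for sgRUVBL2 against sgKLF5 in CFPAC-1. The pseudocount of 0.1 TPM moved no median and no number of differing members past these limits. Beyond what fewer libraries or genes in a fit do by construction, the cause was not tested.

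The replicate numbers of the labels did not pair the libraries of any of 14 fits as a whole, the correlations of same-numbered deviations running from -0.46 to 0.49. For sgRUVBL1 and sgRUVBL2 of BxPC-3 experiment 2 all 3 pairs were over 0.1 (0.22 to 0.46), and there 0 members differed with or without the replicate block. Both pairs of sgCDK1 and sgRpa3 were over 0.1 too in T3M-4 experiment 2 (0.49) and AsPC-1 experiment 3 (0.14). For sgKLF5 and sgRosa of BxPC-3 experiment 2 pairs 1, 3 and 4 were over 0.1 (0.13 to 0.19) and pair 2 was not (0.03). With the replicate block the member median was 0.23 (from 0.15) for sgCDK1 in CFPAC-1, the number of differing members was 5 (from 12) for the sgKLF5 effect in AsPC-1 (experiment 3 minus experiment 1) and 0 (from 2) for the sgKLF5 effect in T3M-4 (experiment 2 minus experiment 1). The block ended 6 calls, those of ACSS2 with sgKLF5 in AsPC-1 experiment 1, SQLE with sgKLF5 in SUIT-2, PMVK with sgKLF5 in BxPC-3 experiment 1, and HMGCS1 with sgRUVBL1, LSS with sgRUVBL2 and INSIG1 with sgCDK1 in BxPC-3 experiment 2. For the vector experiments of AsPC-1 and T3M-4 alone, no paired analysis was possible because their DMSO libraries carry no number that matches the treated ones.

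Leaving out 1 library at a time, the member median that moved most ran over 0.24 to 0.44 for sgKLF5 in AsPC-1 experiment 1, -0.18 to -3.12e-05 for sgRpa3 in T3M-4 experiment 1, -0.0573 to 0.0177 for sgRpa3 in BxPC-3 experiment 1, -0.14 to 0.17 for sgRUVBL2 in CFPAC-1, -0.24 to -0.0860 for sgRUVBL1 in T3M-4 experiment 2, 0.0650 to 0.17 for sgRpa3 in T3M-4 experiment 2, -0.19 to -0.10 for sgRUVBL1 in BxPC-3 experiment 2, -0.16 to -0.0536 for sgRUVBL2 in BxPC-3 experiment 2, -0.34 to -0.16 for sgCDK1 in BxPC-3 experiment 2, -0.18 to -0.0511 for sgRpa3 in BxPC-3 experiment 2, -0.0311 to 0.0704 for Lv-Empty in AsPC-1, 0.0535 to 0.16 for RUVBL2_dF109 in AsPC-1 and -0.11 to 0.11 for RUVBL1_A62T in T3M-4. The number of differing members ran over 12 to 17 for Lv-Empty against RUVBL1_A62T in AsPC-1, 2 to 7 for Lv-Empty against RUVBL2_dF109 in T3M-4, 3 to 9 for sgRUVBL2 against sgRUVBL1 in AsPC-1 experiment 3, 6 to 17 for sgRUVBL2 against sgCDK1 in AsPC-1 experiment 3, 2 to 6 for sgRUVBL1 against sgCDK1 in T3M-4 experiment 2, 0 to 6 for sgRUVBL2 against sgCDK1 in T3M-4 experiment 2, 0 to 1 for sgRUVBL2 against sgRUVBL1 in BxPC-3 experiment 2, 0 to 5 for sgRUVBL1 against sgCDK1 in BxPC-3 experiment 2, 2 to 7 for sgRUVBL2 against sgCDK1 in BxPC-3 experiment 2, 6 to 10 for sgRUVBL1 against sgKLF5 in CFPAC-1, 0 to 4 for sgRUVBL2 against sgKLF5 in CFPAC-1, 5 to 11 for sgRUVBL1 against sgCDK1 in CFPAC-1, 2 for sgRUVBL2 against sgCDK1 in CFPAC-1, 4 to 15 for the sgKLF5 effect in AsPC-1 (experiment 3 minus experiment 1), 0 to 19 for the sgKLF5 effect in T3M-4 (experiment 2 minus experiment 1) and 7 to 14 for the sgKLF5 effect in BxPC-3 (experiment 2 minus experiment 1).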

Other observations

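In 2 groups SREBF1 and FASN spread widely between replicates and in the same order. In AsPC-1 experiment 3 the 4 sgKLF5 libraries, replicates 1 to 4, held SREBF1 at 19.1, 39.7, 42.01 and 22.3 TPM and FASN at 17.8, 33.9, 38.2 and 18.2 TPM. In BxPC-3 experiment 2 the 3 sgRUVBL2 libraries held SREBF1 at 155, 210.0 and 75.8 TPM and FASN at 101.3, 126 and 40.2 TPM. SREBF1 encodes the regulator best known for fatty acid genes, and FASN makes palmitate. These groups were picked after their values were seen, and 3 or 4 libraries are too few for a correlation.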
